A study of Mus musculus with 4 samples.

Results

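A set of 6 long noncoding RNAs was followed in liver mononuclear cells of the mouse, Malat1, Neat1, Kcnq1ot1, Gm26917, Gm42418 and Gm42031. They are 6 of the 31053 genes counted, taken by symbol, and every library held UMIs of each of the 6. They were chosen by their measured levels in these same libraries, their levels in cells rich in mitochondrial RNA included, so the values below are descriptions. With 1 library per group no test between groups was possible, and intervals are exact 95% intervals that cover counting error only.

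Long noncoding RNAs are transcripts without a recognized protein product, and several of them stay in the nucleus, where they build or decorate nuclear bodies. Malat1 is an abundant RNA of nuclear speckles, the stores of splicing factors. Neat1 is the scaffold of paraspeckles, bodies that hold RNA-binding proteins such as Nono and Sfpq. Kcnq1ot1 is transcribed from the paternal chromosome, antisense to the potassium channel gene Kcnq1, and silences genes around it in cis. Gm26917, Gm42418 and Gm42031 are known mainly by their gene models. Gm42418 lies on a copy of ribosomal DNA, and Gm26917 lies just before it.

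All mice were C57BL/6 and 8 to 10 weeks old. The Naïve library came from untreated mice. The other libraries came from mice given concanavalin A (ConA), a lectin that activates T cells and injures the liver, followed by vehicle (ConA+Veh), by the aryl hydrocarbon receptor (AhR) ligand TCDD at 10 µg/kg (ConA+TCDD) or by FICZ, another AhR ligand (ConA+FICZ). Vehicle and TCDD were given 1 hour after ConA and cells were collected at 24 hours, while the dose and time of FICZ and the number of mice per library were not given in the sources used here. Mononuclear cells were enriched on a Percoll gradient and measured with the 10x 5′ assay, in which each captured RNA molecule is tagged with the barcode of its cell and with a random sequence of its own (unique molecular identifier, UMI).

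In the order Naïve, ConA+Veh, ConA+TCDD, ConA+FICZ, used wherever 4 values are given, the libraries held 2086, 2779, 1880 and 2555 cells with 5952445, 19252211, 12077209 and 16017797 UMIs. The median cell held 2161, 3984, 3762 and 3147 UMIs, so Naïve cells were the shallowest. Cells were assigned to a lineage by marker genes, which placed 83.1 to 94.9% of cells, and cells in which the 13 mt- genes of the mitochondrial genome held over 10% of UMIs are called mt-high. These made up 6.23%, 15.9%, 13.1% and 8.30% of cells. Between libraries, 45 cell barcodes occurred more than once, 4 to 15 for a pair of libraries. No doublet caller was run, and among T-gated mt-low cells 8.85 to 18.8% held 2 markers of another lineage, against 2.22 to 6.45% of the mt-high ones. The share was 1.51 to 5.03% of mt-low B cells, 16.2 to 20.4% of NK cells and 18.9 to 37.8% of mononuclear phagocytes.

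The molecules are shown here by their longest run of A, because the assay copies RNA from an oligo(dT) primer, which pairs with stretches of A. In each sequence the capitals mark that run, flanked by 25 bases on either side of the GENCODE transcript (GRCm38, read 5′ to 3′).
Malat1: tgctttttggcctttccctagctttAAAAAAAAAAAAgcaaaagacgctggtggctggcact
Neat1: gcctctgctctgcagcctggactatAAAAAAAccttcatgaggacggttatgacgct
Kcnq1ot1: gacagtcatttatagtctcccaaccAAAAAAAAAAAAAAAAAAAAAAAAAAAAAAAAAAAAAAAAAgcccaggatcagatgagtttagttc
Gm26917: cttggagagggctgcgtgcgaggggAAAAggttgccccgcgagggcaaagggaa
Gm42418: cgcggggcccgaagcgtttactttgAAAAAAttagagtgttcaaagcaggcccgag
Gm42031: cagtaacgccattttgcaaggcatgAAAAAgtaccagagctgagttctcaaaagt

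The runs differed widely. Kcnq1ot1 had a run of 41 A at positions 69565 to 69605 of its transcript, and 30 runs of at least 8 A in all. Malat1 had a single such run, of 12 A at positions 6674 to 6685, which ends 298 bases before the end of the 6983-base transcript. The longest runs of Neat1, Gm42418, Gm42031 and Gm26917 were 7, 6, 5 and 4 bases, and none of these transcripts had a run of 8. Base composition set Gm26917 apart, with 69.1% G and C and 8.26% A, whereas Kcnq1ot1 had 40.3% G and C and 33.3% A. Whether these runs gave rise to the counted UMIs was not tested.

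Malat1 (chr19:5795690-5802672, minus strand) and Neat1 (chr19:5824708-5845478, minus strand) lie next to each other, with 22035 bases between them. Kcnq1ot1 (chr7:143203458-143296549, minus strand) is a single exon of 93092 bases inside Kcnq1 on the opposite strand. Gm26917 (chr17:39843013-39846341) and Gm42418 (chr17:39846958-39848788), both on the plus strand, are separated by 616 bases. In GENCODE, Gm42418 lies wholly antisense to an annotated ribosomal RNA gene, CT010467.1. RefSeq lists Gm42418 itself under Rn18s-rs5, a pseudogene of 18S ribosomal RNA. Only 12 bases lie between Gm26917 and Rn18s-rs5. AY036118, on the minus strand, is contained in Gm42418 at its bases 156 to 1078. Reads of these overlapping genes can be told apart only by strand, and the strand setting of the counting is not given in the sources used here. Gm42031 (chr8:85125872-85132289, minus strand) has 2 exons, and 71.2% of its stretches of 31 bases occur in other genes, 60.9% in Gm43305 alone, so its UMIs are uncertain. The name of nuclear RNA therefore rests on background knowledge for Malat1, Neat1 and Kcnq1ot1, and no localization was measured. Gm42418 is a long noncoding RNA in GENCODE and a ribosomal RNA pseudogene in RefSeq. Whether UMIs of Gm42418 or Gm26917 came from ribosomal RNA was not tested.

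Levels are given in CPM, the UMIs of a gene for every 1000000 UMIs of all genes other than mt- genes, summed over the cells of a lineage. In mt-low cells the members ranked the lineages differently. Malat1 was high in neutrophils, at 11630.3, 9277, 10709.9 and 6132 CPM, and in NK cells, at 11769.7, 5523, 5640 and 4587. Among lineages with at least 20 cells neutrophils led in the 3 ConA libraries, and in Naïve the intervals of NK cells and neutrophils overlapped. B cells held 7095 (6992 to 7199), 2696 (2650 to 2744), 2411 (2345 to 2478) and 2577 (2530 to 2625) CPM. T cells held 7049 (6927 to 7173), 1663 (1635 to 1691), 1575 (1545 to 1606) and 1159 (1133 to 1185). B and T cells thus overlapped in Naïve, and T cells were lower in CPM than B cells in every ConA library. These T cells were deeper than the B cells, with medians of 2778, 10131, 7113 and 9976 against 2158, 4755, 3782 and 3903 UMIs. Counted in UMIs per cell, over all cells of each lineage, Malat1 was higher in T than in B cells of every library. Mononuclear phagocytes, with 4848, 2973, 2588 and 3040 CPM, had a Naïve level above all ConA levels too.

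Neat1 was highest in CPM in neutrophils of every library, among lineages with at least 20 cells. Its level in neutrophils was 504, 425, 321 and 312 CPM, in mononuclear phagocytes 260, 175, 146 and 178, in NK cells 240, 94.8, 98.2 and 120, in B cells 137, 28.3, 21.9 and 26.4 and in T cells 101, 30.7, 17.6 and 17.7. In CPM neutrophils were highest and B and T cells lowest of these lineages. The intervals of phagocytes and NK cells overlapped in Naïve and ConA+TCDD but not in ConA+Veh and ConA+FICZ. Counted per cell, neutrophils held fewer Neat1 UMIs than phagocytes, at 1.04, 1.09, 0.675 and 0.820 against 1.49, 1.51, 1.62 and 1.415. Only in Naïve did these per-cell intervals overlap. Endothelial cells of ConA+FICZ, at 212 CPM, and erythroid cells of ConA+TCDD, at 159, ranked 2 in their libraries. Granulocyte progenitors held 70.9 CPM in ConA+Veh and 95.8 in ConA+TCDD, not above NK cells. Kcnq1ot1 had few or no UMIs in neutrophils. It had 0 UMIs in the 23, 102 and 40 neutrophils of the libraries other than ConA+FICZ, with upper limits of 77.4, 14.1 and 43.85 CPM. In ConA+FICZ it had 6 UMIs, or 8.76 CPM. In T cells it stood at 39.5, 44.2, 45.7 and 35.3 CPM and in B cells at 26.2, 28.7, 25.2 and 28.4, with little difference among libraries. The neutrophil limits of Naïve and ConA+TCDD reached the T-cell intervals, so a lower neutrophil level was seen only in ConA+Veh and ConA+FICZ. Granulocyte progenitors, gated in ConA+Veh and ConA+TCDD with 25 cells each, held 81.3 and 69.6 CPM, but 68.0% and 80.0% of these cells also held 2 markers of another lineage.

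Gm26917 was highest in endothelial cells of ConA+Veh and ConA+FICZ, at 498 and 675 CPM, while Naïve endothelial cells held 185. T cells held 322, 235, 223 and 209 CPM, B cells 139, 110, 134 and 96.6, and mononuclear phagocytes 168, 231, 391 and 252. Gm42418 was measured at 19083.9, 5802, 9084 and 5479 CPM in T cells, at 14716.9, 6529, 7436 and 5930 in B cells and at 22771.8, 8565, 10541.5 and 9923 in NK cells. In each of these lineages the Naïve library stood above the ConA libraries. The level in erythroid-gated cells was 19599.7 CPM in ConA+Veh (62 cells) and 7699 with TCDD (72 cells). Gm42031 was higher in B than in T cells of every library, with 202, 247, 62.7 and 145 CPM in B cells against 20.02, 80.1, 25.8 and 47.1 in T cells. In neutrophils it was at 0, 3, 0 and 12 UMIs.

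**Figure D1:**
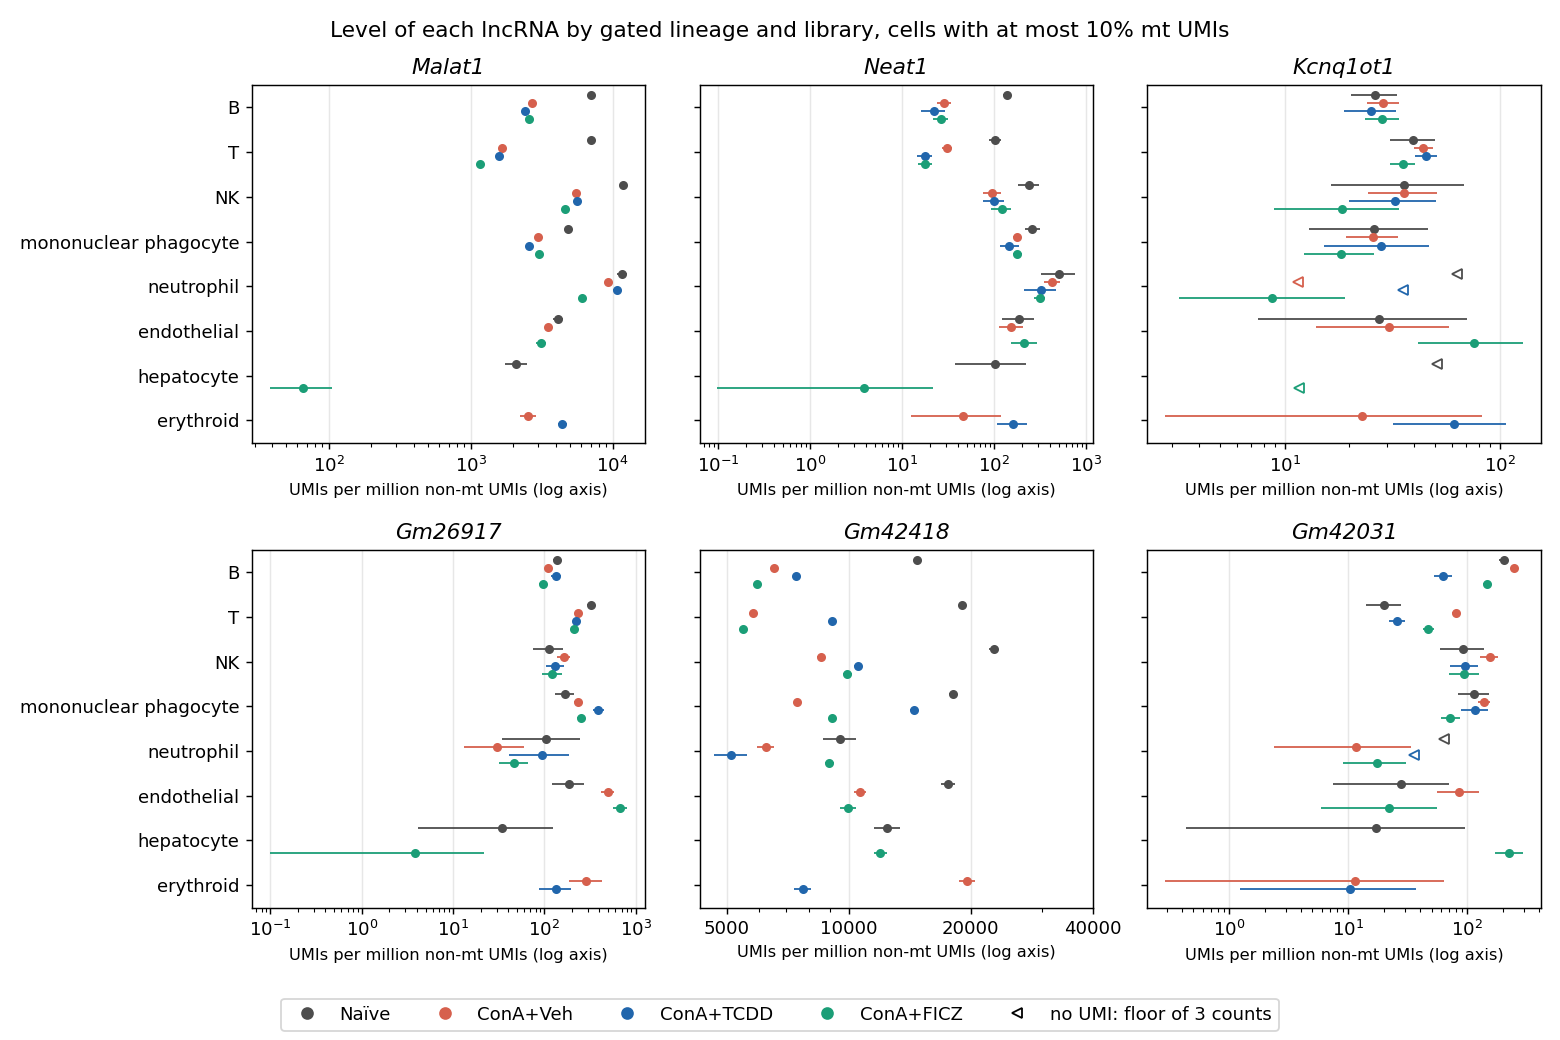
Level of each member (x axis, CPM, log axis) in mt-low cells of each gated lineage (y axis), with 1 point per library in its own color and exact 95% Poisson bars. Open triangles mark groups with no UMI, at the level of 3 counts. Naïve points lie to the right for Malat1 in T cells (7049 against 1159 to 1663 in the ConA libraries), whereas the 4 points of Kcnq1ot1 in T cells lie together (35.3 to 45.7).

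Hepatocyte-gated cells of ConA+FICZ held little of Malat1, Neat1, Kcnq1ot1 and Gm26917. The 145 mt-low cells of ConA+FICZ held 17 UMIs of Malat1 in all, 65.9 CPM (38.4 to 106), in 13 cells. The 24 cells of Naïve held 122, or 2086 CPM, but 109 of them lay in 1 cell and the level was 302 CPM without it, and 3 of the 24 cells had any. The ConA+FICZ cells held 1 UMI each of Neat1 and Gm26917 and none of Kcnq1ot1, with an upper limit of 14.3 CPM. Yet Gm42418 was at 11974.8 CPM, near the 12428.8 of Naïve, AY036118 was at 1434 and Gm42031 at 225 CPM. This Gm42031 level ranked 1 of the 7 lineages of ConA+FICZ with at least 20 cells. A median of 3 of the 8 hepatocyte markers was detected in these cells, against 4.5 in Naïve. Whether these barcodes held whole cells was not tested.

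Wide differences lay between mt-high and mt-low cells of the same lineage and library. In T cells of ConA+Veh, 188 mt-high cells held Malat1 at 16072.5 CPM and 649 mt-low cells at 1663, a log2 ratio of 3.27 (3.23 to 3.31). Neat1 stood at 559 against 30.7 (log2 ratio 4.19), Kcnq1ot1 at 881 against 44.2 (4.32) and Gm26917 at 5394 against 235 CPM (4.52). These 3 ranked 10, 6 and 3 from the top of the 6582 genes with at least 100 UMIs in that pair, and Malat1 ranked 166. Gm42418, at 11087.4 against 5802 (log2 ratio 0.93), lay close to the median gene (0.80), and Gm42031, at 61.8 against 80.1 (log2 ratio -0.37, -0.98 to 0.17), did not differ beyond counting error. In the other 2 ConA libraries the same 4 genes lay far above the median gene (0.66 and 0.34). In ConA+TCDD the log2 ratios were 3.18, 4.86, 4.06 and 4.49 for Malat1, Neat1, Kcnq1ot1 and Gm26917, and Neat1 was the top gene of 5688. In ConA+FICZ they were 3.21, 3.76, 3.64 and 4.34, and Gm26917 was the top gene of 5816. The Neat1 value of ConA+FICZ leaned on 1 cell with 17 of 35 UMIs and was 2.85 (2.05 to 3.57) without it. Gm42418 was at 0.90 with TCDD but at 2.38 with FICZ, where mt-high T cells held 28544.9 against 5479 CPM.

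Naïve T cells showed a smaller spread. Malat1 was at 22534.1 CPM in the 45 mt-high and 7049 in the 497 mt-low cells (log2 ratio 1.68, 1.60 to 1.76), Neat1 at 385 against 101 (1.93, 1.25 to 2.55) and Gm26917 at 1107 against 322 (1.78, 1.40 to 2.15), or 1.32 without 1 cell that held 20 of its 69 UMIs. None of these intervals reached those of the ConA libraries over all cells. Without the 1 cell named above, however, the Neat1 interval of ConA+FICZ overlapped the Naïve one. The Naïve mt-low level of Malat1 was itself above every ConA mt-low level. Kcnq1ot1, with 9 and 71 UMIs, was at 144 against 39.5 CPM and stayed under the minimum of 100 UMIs. Mt-high B cells were also high in these RNAs. Malat1 in B cells was at 29792.7, 28795.0, 27984.2 and 21483.4 CPM in mt-high cells against 7095, 2696, 2411 and 2577 in mt-low cells, log2 ratios of 2.07, 3.42, 3.54 and 3.06. Gm26917 in B cells was at 1880, 1408, 3068 and 926 against 139, 110, 134 and 96.6 (log2 ratios 3.76, 3.68, 4.52 and 3.26), and it was the top gene of Naïve and of ConA+TCDD. In Naïve 1 of the 31 mt-high B cells held 33 of the 74 UMIs, and without that cell the log2 ratio was 2.93 (2.42 to 3.40) and the rank 4. Gm42418 in B cells had log2 ratios of 1.19, 0.17, 1.12 and 2.12, but the value of ConA+TCDD was 0.54 without 1 cell that held 319 of 945 UMIs, and it reversed to -0.27 in cells thinned to 1000 UMIs. The 24 mt-high mononuclear phagocytes of ConA+FICZ held Malat1 at 18820.3 against 3040 CPM (2.63) and Gm26917 at 1406 against 252 (2.48). Counted per cell, Gm26917 was not higher in these mt-high phagocytes, at 1.625 against 2 UMIs with overlapping intervals. Malat1 was not higher per cell either, with 522 UMIs in the 24 mt-high and 4997 in the 207 mt-low phagocytes.

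**Figure D2:**
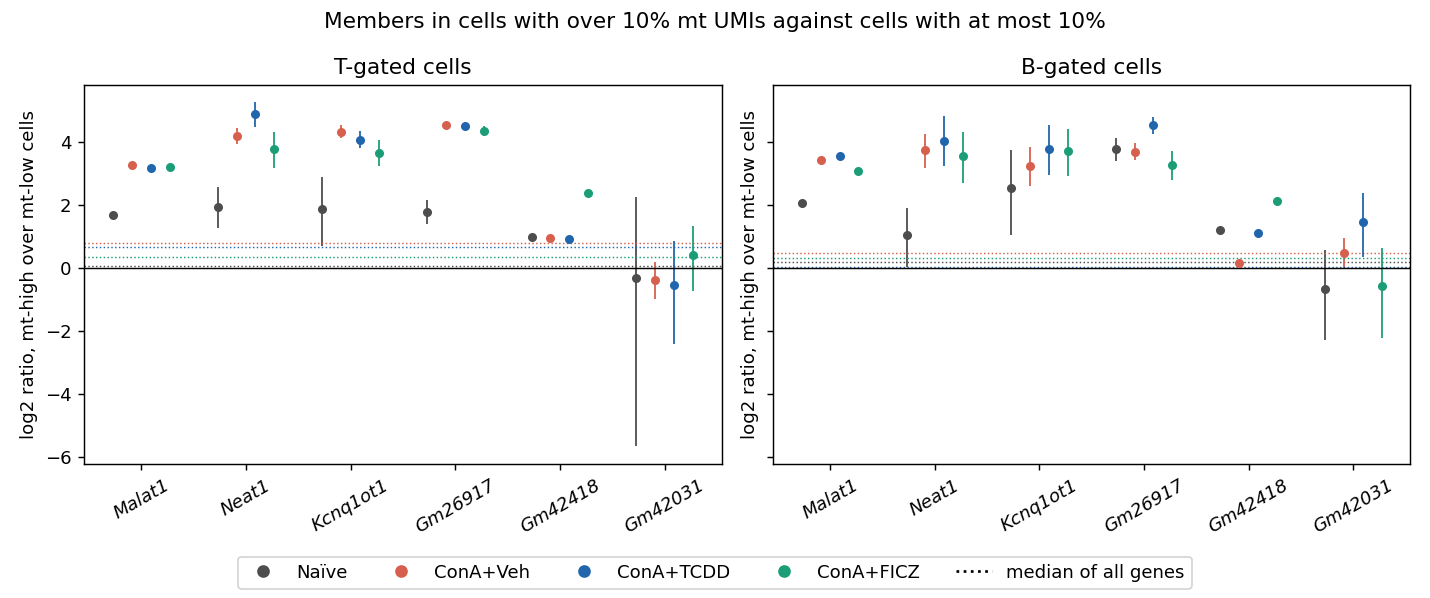
Log2 ratio of the level in mt-high over mt-low cells (y axis) for each member (x axis) in T-gated and B-gated cells, with 1 point per library and exact 95% bars. Malat1, Neat1, Kcnq1ot1 and Gm26917 lie between 3.18 and 4.86 in T cells of the ConA libraries, and Gm42031 in B cells lies between -0.67 and 1.44.

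These ratios must be read against all genes, many of which were also higher in CPM in mt-high cells. Genes past 2-fold higher made up 13.8%, 45.2%, 42.1% and 31.5% of those with 100 UMIs in T cells of the 4 libraries, and of the members 3 of 4, 4 of 6, 4 of 6 and 5 of 6 were past it. In B cells the shares of all genes were 16.6%, 38.7%, 27.4% and 27.1% and those of the members 4 of 5, 4 of 6, 4 of 4 and 5 of 6. In mononuclear phagocytes of ConA+FICZ they were 13.5% and 4 of 5. As levels in mt-high cells had been known when the members were chosen, nothing is read from these counts. Ribosomal protein genes moved the other way, from 36.3% of non-mt UMIs in mt-low T cells of ConA+Veh to 8.66% in mt-high ones, and from 37.7% to 11.1% in ConA+TCDD, but only from 36.2% to 23.2% in ConA+FICZ and from 35.4% to 23.8% in Naïve. Mt-high T cells were shallower too, with a median of 1299, 2646, 2554 and 2472 UMIs against 2778, 10131, 7113 and 9976, and held a median of 3, 5, 4 and 4 of the 8 T-cell markers. With mt-, ribosomal protein and member genes left out of the total, the log2 ratios in T cells of ConA+Veh were 2.79 for Malat1 and 4.04 for Gm26917.

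**Figure D3:**
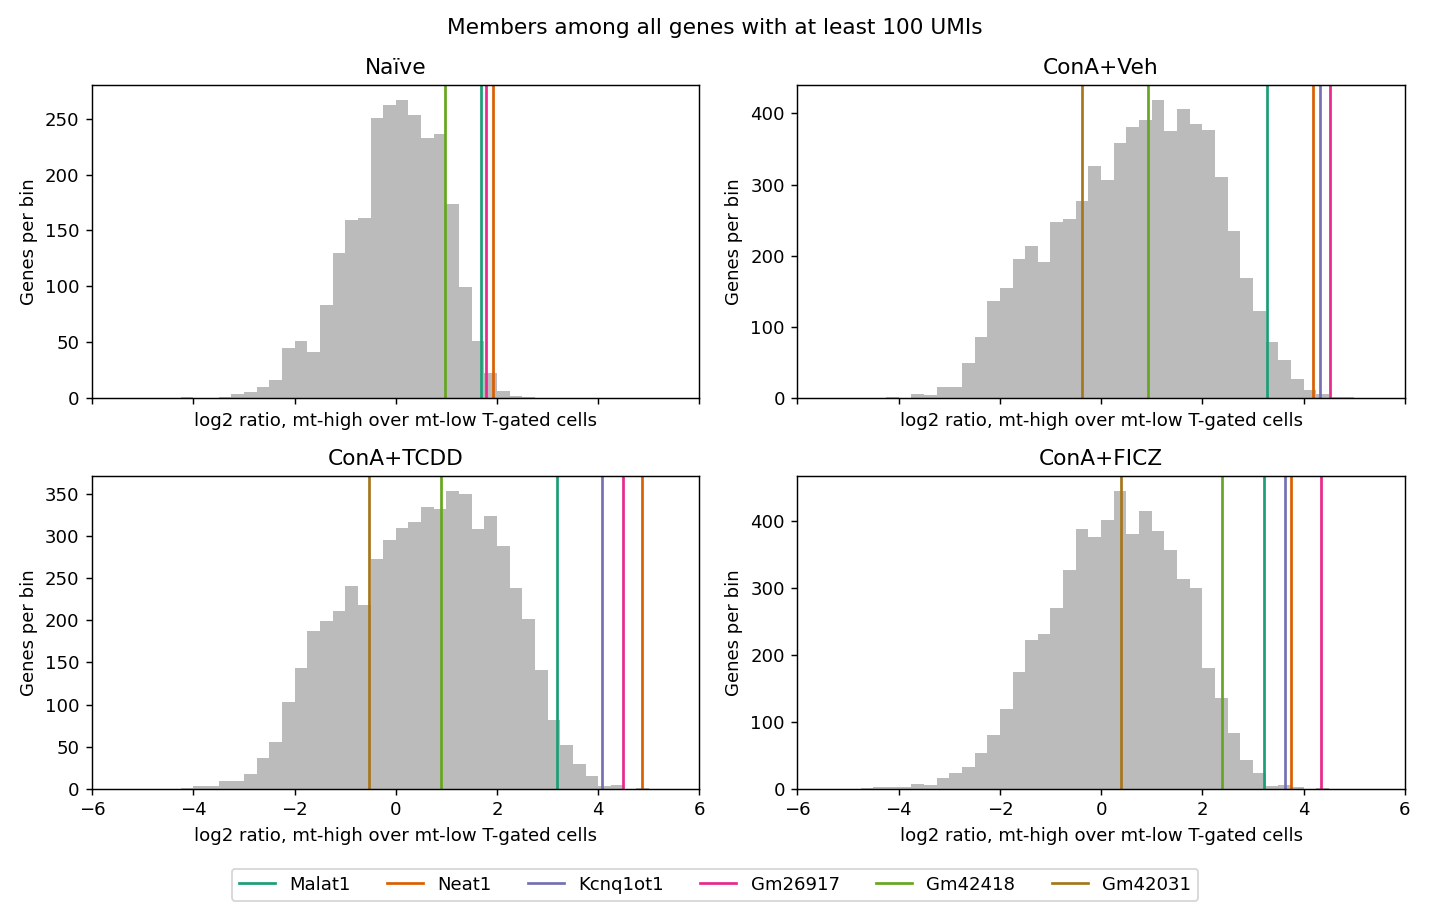
Number of genes (y axis) by log2 ratio of mt-high over mt-low T-gated cells (x axis, bins of 0.25), 1 panel per library, with the members marked. In ConA+Veh the median gene lies at 0.80, Gm42418 at 0.93 beside it, and Neat1, Kcnq1ot1 and Gm26917 at 4.19 to 4.52 in the right tail.

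Within T cells of ConA+Veh 4 of the members were higher with each step of the mt share, below the 10% border as well as across it. Cells with 0 to 2.5%, 2.5 to 5%, 5 to 10%, 10 to 20% and 20 to 40% mt UMIs held Malat1 at 1230, 2073, 4745, 15975.4 and 16247.7 CPM. Gm26917 went from 184, 238 and 859 to 4716 and 6393, Kcnq1ot1 from 31.9, 48.5 and 175 to 767 and 1078, and Neat1 from 23.1, 36.7 and 92.3 to 537 and 599. The last step was small for Malat1, and for Neat1 its intervals overlapped (455 to 629 and 487 to 730). The step across the border, from 5 to 10% to the next bin, was the largest by ratio for each of the 4. Gm42418 behaved differently, with 4765, 6486 and 14929.4 CPM below the border and 11869.1 and 9292 above it, so that its highest bin was the 5 to 10% one. ConA+TCDD gave the same peak, at 6718, 12223.7, 30449.6, 23360.1 and 8523 CPM. Gm42031 stayed between 56.8 and 86.9 CPM in all 5 bins of ConA+Veh.

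**Figure D4:**
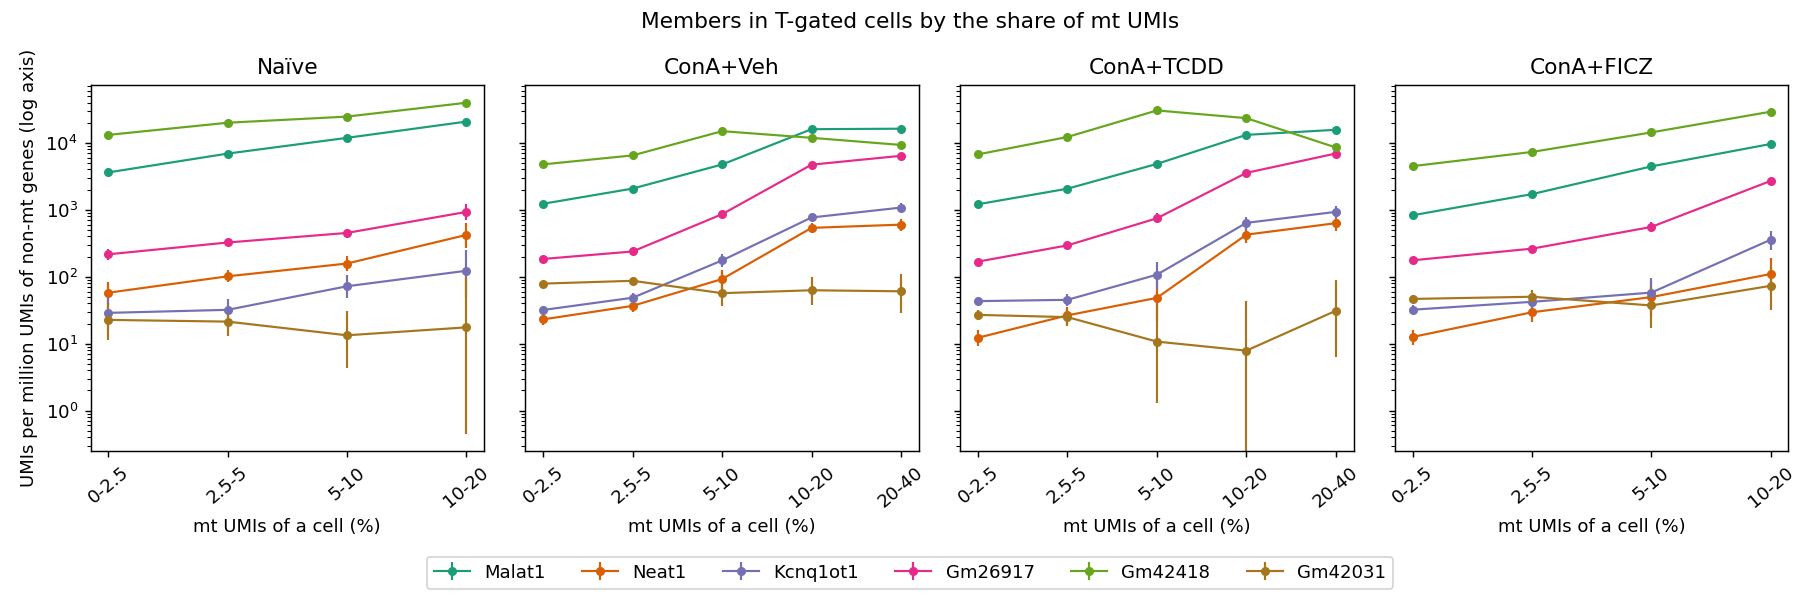
Level of the members in T-gated cells (y axis, CPM, log axis) by the share of mt UMIs of a cell (x axis, %), 1 panel per library, with exact 95% Poisson bars. In ConA+Veh Gm26917 climbs from 184 to 6393 CPM across the bins, while Gm42418 peaks at 14929.4 in cells of 5 to 10%.

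Cells of like total depth were compared next. Among ConA+Veh T cells of 4000 to 8000 UMIs, 144 mt-low and 47 mt-high, Malat1 was at 3390 and 13434.1 CPM, Gm26917 at 491 and 5367, Kcnq1ot1 at 96.2 and 835 and Neat1 at 61.6 and 486. These 4 were higher in mt-high cells within this depth range too, by smaller ratios than over all cells, while Gm42418 was at 8323 and 12892.9 and Gm42031 at 77.0 and 75.9 CPM. In cells of 1000 to 3000 UMIs the log2 ratio was 1.38 for Malat1, against 3.27 over all depths, and 4.01 for Gm26917, against 4.52. In ConA+TCDD T cells of 2000 to 4000 UMIs, 88 mt-low and 37 mt-high, Malat1 was at 4383 and 14608.2 and Gm26917 at 357 and 5797 CPM. Counted per cell instead of as CPM, the members separated in T cells of ConA+Veh. The per-cell values that follow describe that group only. An average T cell of ConA+Veh held 21.04 UMIs of Malat1 when mt-low and 38.7 when mt-high, 2.97 and 13.0 of Gm26917, 0.559 and 2.12 of Kcnq1ot1 and 0.388 and 1.35 of Neat1, although the mt-high cells were shallower. Of Gm42418 it held 73.4 and 26.7 UMIs, so this RNA was lower per cell and higher in CPM in mt-high cells, and Gm42031 went from 1.01 to 0.149 UMIs.

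In T cells of ConA+Veh the higher levels of Malat1 and Gm26917 in mt-high cells were not carried by a few cells. Some ratios of other groups leaned on 1 cell, as given above. Malat1 made up a median of 0.174% of the non-mt UMIs of an mt-low T cell in ConA+Veh, with quartiles of 0.0887% and 0.347%, and 1.68% of those of an mt-high cell, with quartiles of 1.10% and 2.59%. For Gm26917 the medians were 0.0149% and 0.388%, with quartiles of 0 and 0.0327% in mt-low and of 0.182% and 0.707% in mt-high cells. The quartile ranges did not overlap for either gene. For Gm42418 they did, with medians of 0.499% and 0.658% and quartiles of 0.299% to 0.820% and of 0.430% to 1.11%. In cells thinned to 1000 UMIs, 20.6% of mt-low and 86.1% of mt-high T cells of ConA+Veh held a UMI of Gm26917, 4.95% and 40.4% one of Kcnq1ot1 and 3.56% and 29.5% one of Neat1. Cells under 1000 UMIs, 3 of 649 mt-low and 22 of 188 mt-high, were left out. Unthinned, the shares were 74.6% and 89.9% for Gm26917, 30.8% and 63.8% for Kcnq1ot1 and 27.3% and 50.0% for Neat1. Erythroid-gated mt-low cells of the same library, a lineage that sheds its nucleus, held at that depth a Gm26917 UMI in 1 of 42 cells (2.38%), a Kcnq1ot1 UMI in 0 and a Neat1 UMI in 2 (4.76%). Their median before thinning was 1149 UMIs, against 10131 in mt-low and 2646 in mt-high T cells, and the Neat1 share of mt-low T cells was not above theirs. In CPM they were not below mt-low T cells for Gm26917, at 287 (186 to 424) against 235, held by 3.23% of the unthinned cells. Erythroid mt-low cells of ConA+TCDD held Neat1 at 159 and Kcnq1ot1 at 61.4 (31.7 to 107) CPM, against 17.6 and 45.7 in T cells. Their Gm26917 was lower, at 133 against 223.

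Between Naïve and ConA+Veh, the CPM of Malat1 over all cells of a lineage was lower in ConA+Veh in each of the 4 lineages compared. It was at 7568 in Naïve and 2416 in ConA+Veh in T cells, a log2 ratio of -1.65 (-1.68 to -1.62), at 7440 and 3260 in B cells (-1.19), at 12264.3 and 5928 in NK cells (-1.05) and at 5013 and 3198 in mononuclear phagocytes (-0.65). Gm42418 was lower likewise, at 19703.2 and 6078 CPM in T cells (-1.70), at 15001.4 and 6546 in B cells (-1.20), at 22661.0 and 8540 in NK cells (-1.41) and at 18651.4 and 7679 in mononuclear phagocytes (-1.28). Neat1 was lower in B cells, at 35.8 against 139 CPM (-1.96, -2.23 to -1.69), in NK cells (-1.06) and in T cells (-0.93). Of the members, 2 were past 2-fold higher and 2 past 2-fold lower of 6 in T cells, against 19.3% of all genes in either direction. In B cells 3 of 6 were past 2-fold lower against 22.2%, in NK cells 3 of 5 against 15.0% and in mononuclear phagocytes 1 of 5 against 7.64%. Since 1 library stands for each group, these differences between libraries and an effect of ConA cannot be told apart.

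The CPM of Malat1 was lower in cells with more UMIs, and Naïve cells were the shallowest. In mt-low T cells of ConA+Veh, cells of 1000 to 2000, 2000 to 4000, 4000 to 8000 and over 8000 UMIs held 10456.3, 5247, 3390 and 1285 CPM, while the UMIs of Malat1 per cell were 15.2, 15.2, 18.4 and 23.9. In Naïve the same bins held 15849.2, 8580, 6649 and 1344 CPM and 22.9, 23.6, 32.7 and 28.4 UMIs per cell. Naïve mt-low T cells were thus higher than those of ConA+Veh in the 3 shallower bins, while in the deepest bin, which held 22 Naïve cells, the intervals overlapped (1240 to 1453 and 1259 to 1312). Over all T cells of 1000 to 3000 UMIs, mt-high cells included, the log2 ratio of ConA+Veh over Naïve was 0.13, so its sign turned. In B cells, mt-high ones included, it was -0.05. Mt-low B cells alone held 10390.4 CPM in Naïve and 5196 in ConA+Veh at 1000 to 2000 UMIs. At 2000 to 4000 UMIs they held 6749 and 4706. The log2 ratio of Gm42418 changed little in the window of 1000 to 3000 UMIs, at -1.36 in T cells and -1.16 in B cells. Per cell, over all T cells, Malat1 amounted to 26.0, 25.01, 18.6 and 16.1 UMIs in the 4 libraries and in B cells to 17.7, 18.4, 15.4 and 15.2. Over all cells, mt-high ones included, Naïve and ConA+Veh were thus close on that scale. In mt-low T cells, however, Naïve held more Malat1 UMIs per cell in each of the depth bins compared above.

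**Figure D5:**
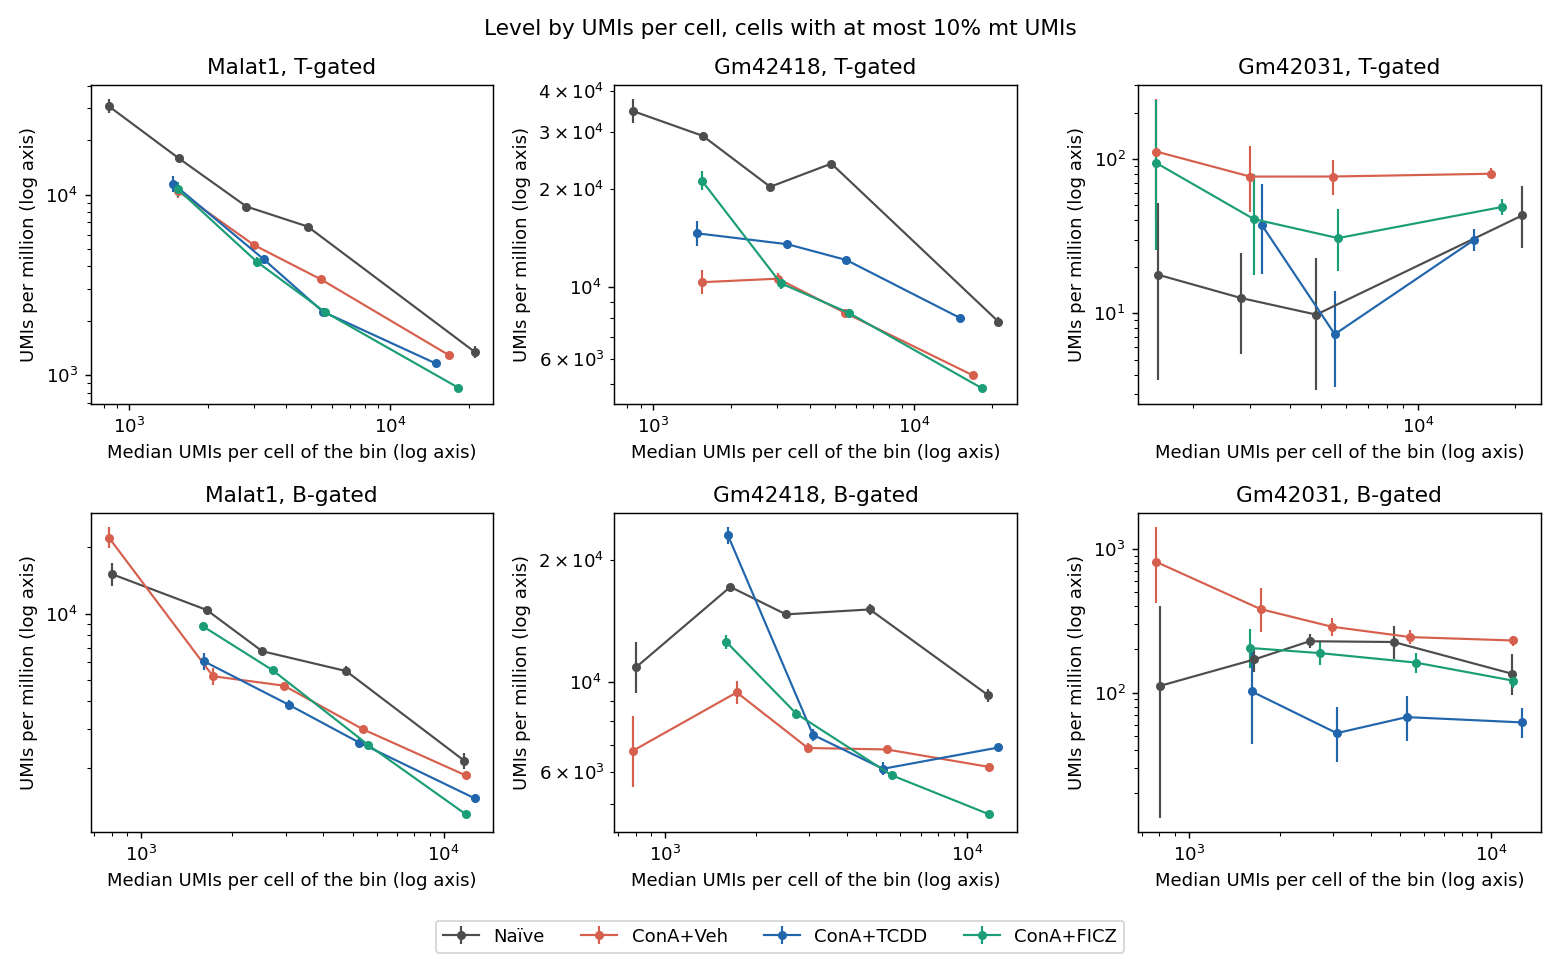
Level in mt-low cells (y axis, CPM, log axis) against the median UMIs per cell of a depth bin (x axis, log axis), with 1 line per library, exact 95% Poisson bars and panels by gene and lineage. For Malat1 in T cells every line descends, from 30832.2 to 1344 in Naïve and from 10456.3 to 1285 in ConA+Veh. The starting values are of unlike depth, as the Naïve line starts at 500 to 1000 UMIs and that of ConA+Veh at 1000 to 2000.

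Kcnq1ot1 and Gm26917 were higher in ConA+Veh than in Naïve over all T cells, at 88.0 against 43.0 CPM (log2 ratio 1.03, 0.70 to 1.38) and at 505 against 348 (0.54, 0.42 to 0.66). These differences were not seen in mt-low T cells. There Kcnq1ot1 was at 44.2 against 39.5 CPM, with overlapping intervals, and Gm26917 at 235 against 322, the opposite direction. Gm42031 was the member that differed most upward, with 686 UMIs in T cells of ConA+Veh and 37 in Naïve, or 79.2 against 19.9 CPM (1.99, 1.52 to 2.51). In mt-low T cells alone the log2 ratio was 2.001. In B cells it was 0.31, at 249 against 201 CPM, in NK cells 0.81 and in mononuclear phagocytes 0.23 (-0.21 to 0.69).

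The 2 AhR ligands were each compared with ConA+Veh, so both contrasts share that library. With TCDD the most altered member was Gm42031, at 25.6 against 79.2 CPM in T cells (log2 ratio -1.63, -1.88 to -1.39), the gene ranked 11 from the bottom of 7860. In B cells it was at 65.7 against 249 (-1.93, -2.19 to -1.67), ranked 34 from the bottom of 5725. Its ratio was -0.75 (-1.22 to -0.30) in NK cells and -0.18 (-0.60 to 0.23) in mononuclear phagocytes. Among B cells thinned to 1000 UMIs and mt-low, 16.5%, 23.0%, 4.62% and 14.5% held a Gm42031 UMI, so ConA+TCDD had the lowest share. Malat1 was within a log2 ratio of -0.27 and 0.02 of ConA+Veh in the 4 lineages. Past 2-fold, in either direction, were 1 of 6 members in B cells against 1.87% of all genes, 1 of 6 in T cells against 0.814%, 0 of 5 in NK cells against 0.396% and 0 of 5 in mononuclear phagocytes against 2.89%.

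Gm42418 was higher with TCDD in each of the 4 lineages. It was at 9352 against 6078 CPM in T cells (0.62, 0.60 to 0.64), at 14604.1 against 7679 in mononuclear phagocytes (0.93, 0.89 to 0.97), at 10546.6 against 8540 in NK cells (0.30) and at 7671 against 6546 in B cells (0.23). AY036118, its antisense neighbor and no member, was at 590 against 216 CPM in T cells (1.45), at 363 against 166 in B cells (1.13) and at 328 against 343 in NK cells (-0.06). In mononuclear phagocytes it was at 2030 against 185 CPM, a log2 ratio of 3.46 (3.29 to 3.63) and the first of 3386 genes, over 50 cells of ConA+TCDD and 252 of ConA+Veh. All 1027 UMIs of ConA+TCDD lay in its 45 mt-low phagocytes, of which 37.8% held 2 markers of another lineage. Their spread over single cells is not given here. For every 100 UMIs of Gm42418, those mt-low phagocytes held 14.1 of AY036118, and over 29 groups of mt-low cells this number lay between 0.883 and 14.1. The counts of both strands of this locus thus did not keep a fixed ratio.

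With FICZ the T-cell level of each member other than Gm42418 was clearly below that of ConA+Veh. Neat1 was at 22.5 against 58.3 CPM in T cells (log2 ratio -1.37, -1.64 to -1.11), Kcnq1ot1 at 44.0 against 88.0 (-0.999, -1.20 to -0.80), Malat1 at 1364 against 2416 (-0.82, -0.86 to -0.79) and Gm26917 at 296 against 505 (-0.77, -0.85 to -0.70). In mt-low T cells alone these ratios were -0.79, -0.32, -0.52 and -0.17, and mt-high cells made up 188 of 837 T cells in ConA+Veh against 62 of 575 in ConA+FICZ. Gm42031 was lower in each lineage, by -0.74 in T, -0.79 in B, -0.76 in NK cells and -0.94 in mononuclear phagocytes. Gm42418 stayed near ConA+Veh, with ratios of -0.03, -0.09, 0.27 and 0.32 in the same order. Past 2-fold were 0 of 6 members in B cells against 1.73% of all genes, 1 of 6 in T cells against 1.07%, 0 of 5 in NK cells against 1.17% and 0 of 6 in mononuclear phagocytes against 1.96%.

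Ratios between members showed which of them kept step. For every 100 UMIs of Malat1, mononuclear phagocytes held 5.36, 5.90, 5.63 and 5.86 of Neat1 in the 4 libraries, mt-low cells only, whereas B cells held 1.93, 1.05, 0.907 and 1.02. The ratio was steady in phagocytes and higher in Naïve B cells than in B cells of the other libraries. Gm26917 per 100 UMIs of Gm42418 was 1.69, 4.05, 2.46 and 3.82 in mt-low and 2.95, 48.7, 29.6 and 14.9 in mt-high T cells, so these neighbors on chromosome 17 did not keep a fixed ratio. Over 38 groups of lineage, library and mt class, the gene whose log2 level was most like that of Malat1 was Mycbp2 (Pearson r = 0.88), followed by Ep300 and Phf21a (both 0.87), among 7719 genes. For Neat1 they were Usp25 (0.84), Malat1 (0.83) and Cmip (0.83), for Kcnq1ot1 Mdn1 (0.95), Pcnt and Cep295 (both 0.92), and for Gm26917 Kcnq1ot1 (0.92), Prrc2c and Tnpo3 (both 0.90). Gm42418 was most like Lars2 (0.90), a mitochondrial leucyl-tRNA synthetase gene, then Mink1 (0.72) and Vps13d (0.69). Gm42031 was most like Txndc5 (0.76), Chd9 (0.73) and BC035044 (0.71). The groups share libraries, depth and mt classes, so these correlations are descriptions.

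Related genes were read from lists by function and position. Of other nuclear long noncoding RNAs, 4 had 100 UMIs in the B-cell pair of ConA+Veh and Naïve, and 3 were past 2-fold lower, with a median log2 ratio of -1.47 against -0.21 for all genes, of which 22.2% were past 2-fold in either direction. Xist, which coats the inactive X chromosome, was at -0.76, Tug1 at -1.41, Ftx at -1.53 and Mir142hg, the host of a blood-cell microRNA, at -2.19. In T cells 2 of 4 were past it, against 19.3% of all genes, with a median of -0.76 against -0.07. In mt-high against mt-low T cells of ConA+Veh both measured genes, Xist at 3.31 and Pvt1 at 3.40, were past 2-fold higher, and Xist stood at 1.68 in Naïve, 3.73 with TCDD and 2.998 with FICZ. Of the 3 measured host genes of small nucleolar RNAs, Snhg12 was past 2-fold higher at 1.35, Snhg6 past 2-fold lower at -1.65 and Epb41l4aos at -0.50. Of the paraspeckle proteins, 5 of 10 were past 2-fold higher and 1 lower in that comparison, with a median of 0.93, where 45.2% of all genes were past 2-fold higher. Sfpq was at 1.19, while Hnrnpk at -0.21 and Nudt21 at -1.13 were not higher. Of the nuclear speckle proteins 2 of 8 were past it, Son at 2.22 and Srrm2 at 1.495, with a median of 0.68. Of the 5 measured neighbors of Malat1 and Neat1 1 was past it, Pola2 at 1.05, and of the 3 imprinted neighbors of Kcnq1ot1 0, with medians of 0.30 and 0.47, below the median of all genes at 0.80.

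Between ConA+Veh and Naïve, 19.3% of all genes in T cells and 22.2% in B cells were past 2-fold. Of 10 paraspeckle proteins 0 were past 2-fold in T cells (median 0.21) and 1 was higher and 1 lower in B cells (median -0.0047). Of 8 nuclear speckle proteins 1 was past 2-fold lower in each lineage, in T cells Srsf5, a splicing factor, at -1.13. Of the neighbors of Malat1 and Neat1, Frmd8 was past 2-fold lower in T cells (-1.09), the others were not, and of the neighbors of Kcnq1ot1 0 of 3 passed. Of the snoRNA hosts 2 of 3 were lower in T cells and 1 of 3 in B cells. With TCDD or FICZ over ConA+Veh in T cells, 0 genes of these lists were past 2-fold except AY036118 with TCDD.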

How the data were processed

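Single-cell RNA of liver mononuclear cells was measured in 4 libraries, 1 per group, named from the labels. Libraries were made with the 10x 5′ kit. The authors aligned reads to mm10 with Cell Ranger 3.0.2 and deposited raw UMI counts per gene and barcode, without normalization. All deposited barcodes were used (at least 500 UMIs each). Members and gene lists were chosen with earlier results of these data known. The named genes were the members, at most 4 per list with most UMIs, and the 3 genes most like each member. Ftx and Srsf5 were named after their values were seen.

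A cell was gated to the lineage with most of its 7 or 8 markers, at least 2 and more than every other lineage, among 10 lineages. Counts were summed per lineage, library and mt class and divided by the non-mt UMIs. Poisson, binomial and conditional binomial intervals were exact at 95%, and groups with 0 UMIs were drawn at the level of 3 UMIs. Groups of fewer than 20 cells were not described by cell. Genes with at least 100 UMIs in a pair entered ranks and shares past 2-fold. Pearson correlations used log2(level + 10). Listed genes not used here were Firre, Dleu2, Gas5, Snhg1, Snhg3, Snhg5, Snhg8, Zfas1, Rn45s, Rn18s-rs5 and Rn4.5s. Positions and sequences came from GENCODE M21 and GRCm38, the build also called mm10. Intervals and ranks were tested on simulated data. Alternatives changed the denominator, gate, mt border, depth minimum, thinning, fold and weighting of cells, and a window of 1000 to 3000 UMIs and leaving out the cell with most UMIs of a gene were added after seeing the data. Scripts ran in Python 3.11.15 with pandas 2.3.3, matplotlib 3.10.9, scipy 1.17.1 and numpy 2.4.6.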

Additional observations from a re-analysis of the deposited data

Results flagged for a closer look

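Gm26917 differed in direction between lineages in the contrast of ConA+Veh over Naïve, with log2 ratios of 0.54 in T cells, 0.84 in NK cells and 0.94 in mononuclear phagocytes but -0.26 in B cells. In ConA+TCDD over ConA+Veh it was higher in B cells (0.63) and mononuclear phagocytes (0.44) and lower in T cells (-0.39) and NK cells (-0.55). Gm42418 in ConA+FICZ over ConA+Veh was higher in NK cells (0.27) and mononuclear phagocytes (0.32) and lower in B cells (-0.086) and T cells (-0.025). These were singled out because the intervals of lineages lay on opposite sides of 0. In mt-low cells alone Gm26917 was lower in T cells (-0.45) as in B cells (-0.34) of ConA+Veh over Naïve. The opposite directions of T and B cells were thus not seen there. Mt-low NK cells, at 163 against 112 CPM, and mononuclear phagocytes, at 231 against 168, stayed higher, with overlapping intervals. In ConA+TCDD over ConA+Veh it was at -0.07 in mt-low T and 0.29 in mt-low B cells. Mt-low mononuclear phagocytes were higher there, at 391 against 231 CPM. Mt-low NK cells were lower, at 131 against 163, with overlapping intervals. The difference between lineages was not tested, since each side had 1 library.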

How the results depend on the processing

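All log2 ratios named here rest on 1 library per group, and no alternative tests a difference between groups. For Malat1 in ConA+Veh over Naïve, T (-1.65), the log2 ratio was -1.70 without mt-, ribosomal protein and member genes in the total, -1.55 and -1.68 with gates of 3 markers and of 1 marker, -0.87 as a mean over cells, -1.61 in cells of at least 1000 UMIs, -0.96 thinned to 1000 UMIs and -2.08 in mt-low cells, and it reversed to 0.13 in cells of 1000 to 3000 UMIs, a window chosen after seeing the data. In B cells (-1.19) the values in the same order were -1.11, -1.22 (3 markers), -0.37, -1.29, -0.85, -1.40 and -0.047. The window values 0.13 and -0.047 include mt-high cells. For Malat1 in mt-high over mt-low T cells of ConA+Veh (3.27) it was 3.002 per all UMIs, 2.79 without those genes, 2.69 as a mean over cells, 3.22 from 1000 UMIs, 2.53 thinned, 1.38 in the window, and 2.83 and 2.92 with the mt border at 5% and 20%. For Gm26917 (4.52) the values were 4.25, 4.04, 4.14, 4.06 thinned, 4.01 in the window, 3.99 and 4.09. Gm42418 in mt-high over mt-low B cells of ConA+TCDD (1.12) reversed to -0.27 thinned and -0.51 in the window. The causes were not tested. At 1.5-fold, 43.0% of genes in T cells and 47.9% in B cells passed between Naïve and ConA+Veh. Of 67 ratios between libraries, 52 to 67 kept their direction over 9 alternatives, fewest in the window, and of 14 past 2-fold 9 to 14 stayed past it. Of 48 ratios between mt classes 44 to 48 kept it, or 45 of 47 thinned, 36 of 40 at the 20% border and 46 of 47 without the mt-high cell with most UMIs of the gene. No paired analysis was possible because each group had 1 library. Levels under 100 UMIs carry wide counting intervals.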
